A study of Mus musculus with 4 samples.

Results

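The insulin and insulin-like growth factor (IGF) genes described here are 1 ligand, the insulin and IGF1 receptor tyrosine kinases, the pair of classical receptor substrates and 5 secreted IGF-binding proteins. They were taken as the entries of the deposited count table whose gene symbol is Igf1, Igf1r, Insr, Irs1, Irs2, Igfbp2, Igfbp3, Igfbp4, Igfbp5 or Igfbp7. Each symbol had 1 entry, so the set holds 10 of the 55421 genes of the table, and all 10 passed the filter on low counts that left 20232 genes for testing. RNA was sequenced from primary cultures of spermatogonia (spermatogonial stem cell or SSC culture) derived from testes of neonatal CD1 mice, with 2 libraries of each treatment. Veh cultures stayed in complete SSC medium with N2 supplement, serum, serum replacement, bFGF and GDNF. NRRA cultures received nutrient restriction medium, which is complete medium diluted in Earle's balanced salt solution, plus retinoic acid (RA), for 2 days. All cultures were kept on irradiated mouse embryonic fibroblast (MEF) feeder cells of CF1 origin. The comparison asks how transcripts of CD1 spermatogonia differ after NRRA. Nutrient restriction alone and RA alone were not analysed here, so the contribution of each cannot be told apart, and N2, a supplement that usually contains insulin, was diluted with the rest of the medium.

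IGF1 and IGF2 bind the receptor encoded by Igf1r, and insulin binds the closely related receptor encoded by Insr. Both receptors phosphorylate the docking proteins IRS1 and IRS2, which recruit PI3-kinase, so that AKT becomes active and holds FoxO transcription factors out of the nucleus. IGF-binding proteins are secreted proteins that hold IGFs outside the cell and can limit or prolong their access to the receptor, and in the testis insulin family receptors are known for their role in Sertoli cell proliferation and testis growth.

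The response of the genes was split. Igfbp3, Igf1, Igfbp4 and Insr were higher in NRRA, Igfbp5, Irs2, Igfbp2 and Igf1r were lower, and Irs1 and Igfbp7 were not called (edgeR, p adjusted over all genes tested, threshold 0.05). Thus 4 of 10 were higher and 4 of 10 lower, against 27.9% higher and 28.4% lower among all genes tested. The libraries of the groups did not overlap for any of the genes, with 6 higher and 4 lower in both NRRA libraries, where 38.1% and 38.6% of all tested genes separate in that way. The median log2 fold change (NRRA over Veh) was 0.07, beside 0.00029 for all genes tested, and the median absolute log2 fold change was 0.45 beside 0.33. Only Igfbp3, Igfbp5 and Igf1 differed by at least 2-fold. Levels are given as CPM, read counts scaled to library size with TMM factors.

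**Figure D1:**
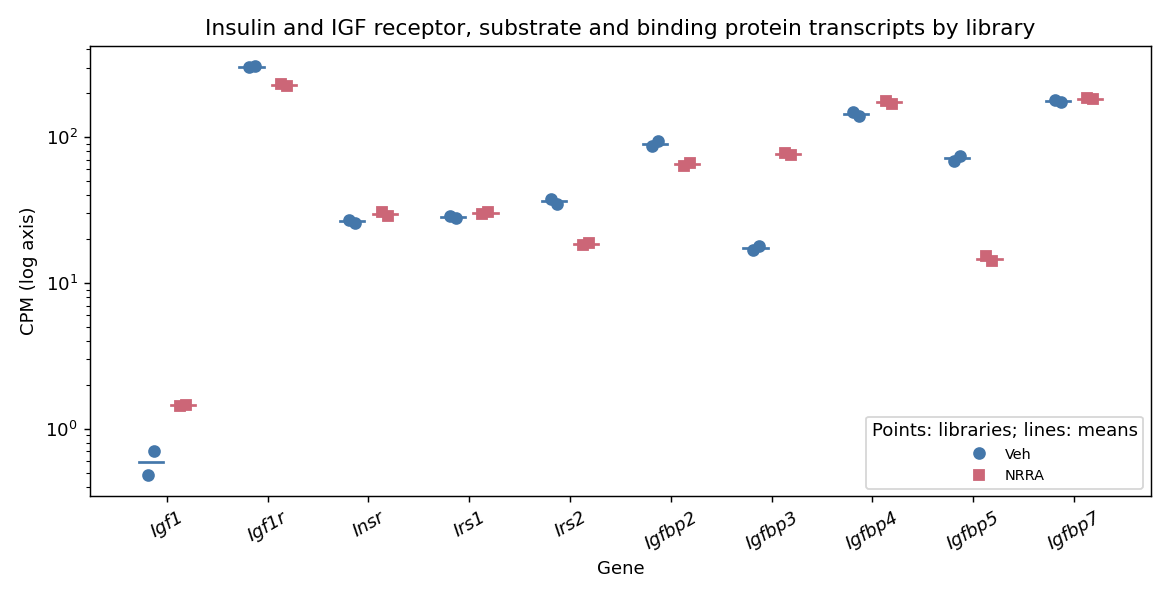
CPM (log axis) of each gene in the 2 Veh libraries (circles) and the 2 NRRA libraries (squares), with horizontal lines at the group means. Igfbp3 and Igfbp5 trade places, Igfbp3 from 17.3 to 76.7 CPM and Igfbp5 from 71.4 to 14.7 CPM, while Igfbp7 and Irs1 lie nearly level.

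Library totals ranged from 28022265 to 31604769 counts, and the floor used here, 3 counts, was 0.0921 to 0.111 CPM by library. PCR copies could not be recognised, and the floors describe counting error alone, whereas the 95% intervals come from the edgeR fit and include the spread between libraries. The study describes its sequencing replicates as biologically independent. The labels do not name their cultures, and the p-values rest on the spread between 2 libraries per group. That spread was small, with a common coefficient of variation beyond counting error of 2.61% in the edgeR fit. Whether it covers the variation between independent cultures was not tested. Germ cell transcripts were abundant in all libraries, with Ddx4, an RNA helicase of germ cells, at 270 ± 3.74 CPM in Veh and 275 ± 5.34 CPM in NRRA (mean ± SD of 2 libraries). The 13 germ cell markers together ranged from 3177 to 3227 CPM over the 4 libraries, and singly from a log2 fold change of -5.28 (Nanos3) to 0.84 (Sall4). Of the 13, 5 were higher and 7 lower, so the steady sum holds changes in both directions. The 28 fibroblast feeder markers together held 1.35% and 1.34% of all Veh reads and 1.09% and 1.06% of all NRRA reads, and 24 of 28 were lower and 2 higher, from a log2 fold change of -1.52 (Timp1) to 0.98 (Pdgfra). Their summed level was 13924 and 13829 CPM in Veh and 10554 and 10316 CPM in NRRA, and a lower number of feeder cells and less RNA per feeder cell cannot be told apart in such libraries. Of 15 markers of testis somatic cells, 8 were tested, and 3 of these were higher and 2 lower. Their summed level was 56.1 and 61.8 CPM in Veh and 90.8 and 88.9 CPM in NRRA. Clu rose from 8.20 to 58.1 CPM and Sox9, a transcription factor gene of Sertoli cells, fell from 28.2 to 9.38 CPM (edgeR adjusted p 1.95e-21 and 1.32e-14), and the sum of the others was 20.9 and 24.1 CPM in Veh and 22.5 and 22.2 CPM in NRRA. Inha and Star were called higher (log2 fold change 0.53 and 0.31, edgeR adjusted p 0.0178 and 0.0317), Myh11 was called lower (-0.88, edgeR adjusted p 0.000585), and Wt1, Gata4 and Cyp17a1 were not called. The Sertoli cell hormone gene Amh had between 1 and 3 counts per library and the FSH receptor gene Fshr had 0. Markers other than the highest and lowest of a list were named with their values known.

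Igf1r was the most counted of the 10 genes. It encodes the receptor that IGF1 and IGF2 share (ENSMUSG00000005533, GRCm38 chromosome 7, 67952827 to 68233668, plus strand). Its counts were 8249 and 9092 in Veh against 7504 and 6795 in NRRA, that is 304 and 306 CPM against 230.4 and 226 CPM. Both NRRA libraries lay below both Veh libraries, and the means of 305 ± 1.01 and 228 ± 3.32 CPM (mean ± SD of 2 libraries) differed by a log2 fold change of -0.42 (SE 0.028, 95% interval -0.48 to -0.36, edgeR adjusted p 8.48e-13). The summed feeder markers changed by -0.41 on the log2 scale, a sum in which Fn1 had the largest share (6115 CPM in Veh, log2 fold change -0.49) and whose members ranged from -1.52 to 0.98. Per 1000 feeder marker counts Igf1r stood at 21.8 and 22.1 in Veh and at 21.8 and 21.9 in NRRA, so that no difference was called when libraries were scaled to those markers (log2 fold change -0.0076, edgeR adjusted p 0.858). The part of the feeder cells in the level of Igf1r was not tested.

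Insr encodes the insulin receptor (ENSMUSG00000005534, chromosome 8, 3122061 to 3279617, minus strand). Its level was 26.9 and 25.9 CPM in Veh and 30.5 and 28.9 CPM in NRRA, from counts of 730, 771, 992 and 871 in that order. Both NRRA libraries were above both Veh libraries, but the step was small, with a log2 fold change of 0.17 (SE 0.067, 95% interval 0.032 to 0.31, edgeR adjusted p 0.0335). The call was lost with DESeq2 (adjusted p 0.149), without Veh replicate 2 (edgeR adjusted p 0.163) and without NRRA replicate 1 (edgeR adjusted p 0.228), and the fold was 0.26 on the log2 scale with library size only.

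The receptors therefore moved toward each other. Divided by the bases covered by their annotated exons, the level of Igf1r was 18.1 and 18.2 RPKM (CPM per kilobase) in Veh and 13.7 and 13.4 RPKM in NRRA, and that of Insr was 1.96 and 1.89 RPKM in Veh and 2.22 and 2.10 RPKM in NRRA. In each library Igf1r was the higher of the pair, 9.25 and 9.65 times Insr in Veh and 6.19 and 6.39 times in NRRA. Insr made up 9.76% and 9.39% of the pair in Veh and 13.9% and 13.5% in NRRA. These shares are taken inside a library and need no scaling between libraries, and with 2 libraries against 2 an exact permutation test cannot give a p below 0.333, so no test is given for them. The other receptors examined had small or uncertain differences. Igf2r, which clears IGF2 from the cell surface, was called lower with a log2 fold change of -0.072 (edgeR adjusted p 0.0119), and the insulin receptor-related gene Insrr was at 0.57 (edgeR adjusted p 0.0793) from between 38 and 79 counts.

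**Figure D2:**
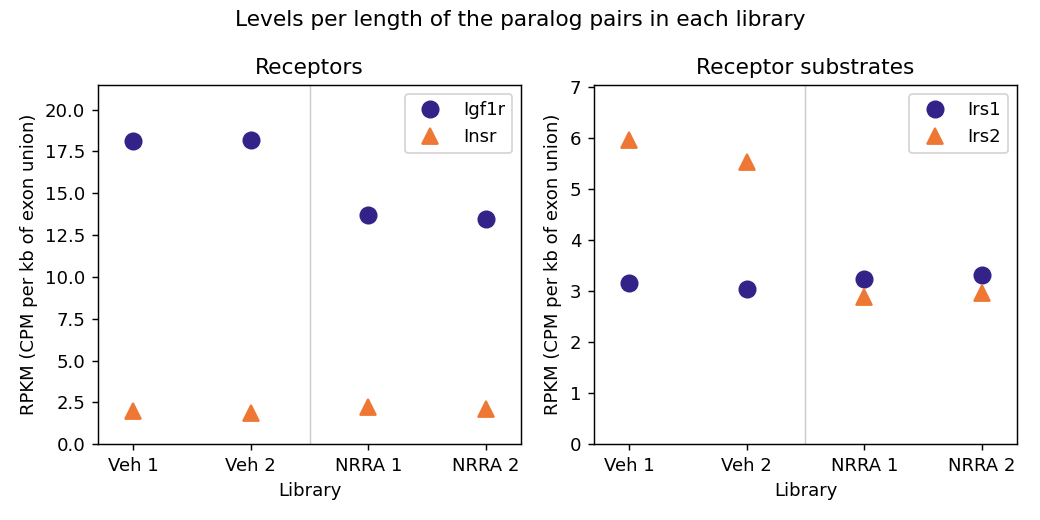
Levels per length (RPKM, CPM per kilobase of exon union) of Igf1r and Insr (left) and of Irs1 and Irs2 (right) in each library, with the vertical line between the Veh and NRRA libraries. Igf1r stays far above Insr while falling from about 18.2 to 13.6 RPKM, and Irs2 falls from above Irs1 to below it.

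Of the receptor substrates, Irs2 was lower and Irs1 was not called. Irs2 encodes a docking protein of both receptors (ENSMUSG00000038894, chromosome 8, 10984681 to 11008458, minus strand). Its counts of 1024 and 1041 in Veh and 593 and 565 in NRRA gave 37.8 and 34.99 CPM against 18.2 and 18.8 CPM. The groups were far apart relative to their spread, 36.4 ± 1.96 against 18.5 ± 0.396 CPM (mean ± SD of 2 libraries), log2 fold change -0.98 (SE 0.070, 95% interval -1.12 to -0.83, edgeR adjusted p 5.05e-12). Relative to the summed feeder markers the fall was smaller, with a log2 fold change of -0.56 (edgeR adjusted p 1.27e-09). Single feeder markers ranged from -1.52 (Timp1) to 0.98 (Pdgfra) under TMM scaling, a range that holds the -0.98 of Irs2. The part of the feeder cells in the level of Irs2 was not tested. Irs2 shares 2.56% of its exonic bases with a gene on the opposite strand that had between 19 and 50 counts.

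Irs1 encodes the other docking protein (ENSMUSG00000055980, chromosome 1, 82233101 to 82291416, minus strand) and had 28.9 and 27.8 CPM in Veh and 29.6 and 30.4 CPM in NRRA. The NRRA libraries were slightly above the Veh libraries, and the log2 fold change of 0.085 (SE 0.065) had a 95% interval from -0.050 to 0.22 (edgeR adjusted p 0.283), which does not reach the fall of Irs2. With library size only the difference was called (log2 fold change 0.17, edgeR adjusted p 0.0248). Gm9747, on the opposite strand, overlaps 30.9% of the exonic bases of Irs1, and it was counted 221 and 241 times in Veh and 281 and 272 times in NRRA. The study's methods describe a stranded library preparation, but the strand setting of the counting is not given in the sources used here, so whether reads of these genes were told apart is unknown.

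The balance of the substrates changed side. The level per length of Irs2 was 5.97 and 5.53 RPKM in Veh, above Irs1 with 3.16 and 3.04 RPKM. In NRRA, Irs2 was at 2.88 and 2.97 RPKM and Irs1 at 3.24 and 3.33 RPKM. Irs2 thus accounted for 65.4% and 64.6% of the pair in Veh and 47.1% in both NRRA libraries. Irs4, a further substrate gene, was close to the detection limit, with 16 and 17 reads in Veh against 33 and 44 in NRRA, and was called higher (log2 fold change 1.08, SE 0.37, edgeR adjusted p 0.0158), and Irs3 had between 2 and 10 counts and was not tested.

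The sequences upstream of Irs1 and Irs2 are shown because only Irs2 of the pair was called and because both windows hold the same motif of insulin-regulated promoters. The letters CAAAACAA, known as an insulin response element and a site for FoxO proteins, were searched on both strands in the bases before each annotated RefSeq start (250 bases, GRCm38.p6) and occurred in 2.21% of 32851 such windows of all genes. A window was held for 9 of the 10 genes (Insr had none), with a second window for Igfbp2, and of these genes Irs1 and Irs2 had the motif. Both windows also hold the E box CACGTG, which occurs in 6.02% of all windows. Among these genes it was also found at -142 in the first window of Igfbp2. Of all windows, 0.1% (33) hold both motifs, and only this pair of the 11 motifs searched was counted together. The stretches below run from -150 to -1 relative to the start, 5' to 3' on the minus strand, with both motifs in capitals. They lie at chr1:82291440-82291589 and chr8:11008930-11009079. The RefSeq start of Irs1 lies 23 bases, and that of Irs2 471 bases, upstream of the GENCODE gene.
Irs1: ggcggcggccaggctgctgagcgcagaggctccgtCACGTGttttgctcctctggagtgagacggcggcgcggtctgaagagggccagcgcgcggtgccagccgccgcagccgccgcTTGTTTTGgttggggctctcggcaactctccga
Irs2: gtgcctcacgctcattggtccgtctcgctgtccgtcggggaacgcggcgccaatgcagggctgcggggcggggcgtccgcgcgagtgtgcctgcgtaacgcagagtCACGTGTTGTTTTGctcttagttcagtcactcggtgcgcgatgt
In Irs2 the motifs adjoin each other, from -44 for the E box and from -38 for TTGTTTTG, which is the same motif read on the other strand. In Irs1 they lie apart, from -115 and from -33. A match describes letters only, and whether either motif acts on these genes was not tested.

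Igf1 was the only ligand of the receptors that was higher. The gene encodes IGF1 (ENSMUSG00000020053, chromosome 10, 87858265 to 87937042, plus strand) and had few reads, 13 and 21 in Veh against 47 and 44 in NRRA, or 0.479 and 0.706 CPM against 1.44 and 1.46 CPM. Both NRRA libraries were above both Veh libraries. The log2 fold change was 1.28 (SE 0.35, 95% interval 0.56 to 2.00, edgeR adjusted p 0.00279). At 0.0598 and 0.147 RPKM it had the lowest level per length of the 10 genes in either group. Igf2, a fetal growth factor gene made by many embryonic cells, was the more abundant ligand with 26.5 ± 1.05 CPM in Veh and 19.5 ± 0.068 CPM in NRRA (mean ± SD of 2 libraries), log2 fold change -0.45 (edgeR adjusted p 9.90e-06). For Ins2 no read was counted in any library, which allows up to the floor of 0.0921 to 0.111 CPM, and Ins1 had 1 count in NRRA replicate 1.

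Among the IGF-binding proteins, 1 gene rose more than 4-fold and another fell more than 4-fold. Igfbp3 encodes the main carrier of IGFs in serum (ENSMUSG00000020427, chromosome 11, 7206086 to 7213923, minus strand). Its counts were 453 and 533 in Veh against 2553 and 2257 in NRRA, that is 16.7 and 17.9 CPM against 78.4 and 75.0 CPM. The NRRA libraries were 4.43-fold higher, log2 fold change 2.15 (SE 0.060, 95% interval 2.02 to 2.27, edgeR adjusted p 1.06e-20). Of all tested genes, 96.3% had an absolute log2 fold change no larger than that of Igfbp3.

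Igfbp5 encodes a binding protein that attaches to extracellular matrix (ENSMUSG00000026185, chromosome 1, 72857932 to 72874884, minus strand). It was counted 1862 and 2204 times in Veh and 495 and 426 times in NRRA, or 68.7 and 74.1 CPM against 15.2 and 14.2 CPM. The NRRA libraries were 4.86-fold lower, log2 fold change -2.28 (SE 0.064, 95% interval -2.41 to -2.15, edgeR adjusted p 1.30e-20). Relative to the feeder markers, Igfbp5 still fell by 1.87 on the log2 scale and Igfbp3 rose by 2.56 (edgeR adjusted p 2.23e-31 and 2.46e-39). The part of the feeder cells in either level was not tested.

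The other 3 binding proteins moved less. Igfbp2, a binding protein common in fetal tissues (ENSMUSG00000039323, chromosome 1, 72824503 to 72852474, plus strand), had 87.2 and 93.6 CPM in Veh and 63.6 and 66.3 CPM in NRRA, log2 fold change -0.48 (SE 0.045, edgeR adjusted p 9.73e-10). Scaled to the feeder markers, the difference of Igfbp2 was -0.067 and was not called (edgeR adjusted p 0.222). Igfbp2 lies next to Igfbp5, with their 3' ends facing and 5457 bases between them, and both were lower in NRRA. Igfbp1 and Igfbp3 are also neighbours, 3539 bases apart. Of that pair Igfbp3 was higher and Igfbp1 had 0 counts in all libraries, and a role of position was not tested.

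Igfbp4, whose protein is the substrate of the protease PAPPA (ENSMUSG00000017493, chromosome 11, 99041244 to 99054392, plus strand), had 148 and 140.4 CPM in Veh and 178 and 169 CPM in NRRA. The difference was 0.27 on the log2 scale (SE 0.035, edgeR adjusted p 3.16e-07), and 4.36% of the bases of its longest transcript match other genes almost exactly. Igfbp7 encodes a secreted protein of low IGF affinity (ENSMUSG00000036256, chromosome 5, 77349240 to 77408041, minus strand) and was the most abundant of the 10 genes per length. Its 179 and 174 CPM in Veh and 185 and 182 CPM in NRRA gave a log2 fold change of 0.055 (SE 0.031, 95% interval -0.0090 to 0.12, edgeR adjusted p 0.138). Igfbp7 was called higher with library size only (0.14) and with upper quartile factors (0.075), and 7.03% of its exonic bases overlap Polr2b on the opposite strand, a gene with 10807 to 14967 counts per library.

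The summed level of the 5 binding protein genes was nearly the same in all libraries, while its make-up changed. It was 499 and 500.0 CPM in Veh and 519.7 and 506 CPM in NRRA. Igfbp3 made up 3.35% and 3.58% of their summed counts in Veh and 15.1% and 14.8% in NRRA. Igfbp5 went the other way, from 13.8% and 14.8% to 2.92% and 2.80%. Igfbp2 went from 17.5% and 18.7% to 12.2% and 13.1%, Igfbp4 from 29.6% and 28.1% to 34.2% and 33.4%, and Igfbp7 was between 34.8% and 35.9% in all libraries. These are shares of reads, in which longer transcripts weigh more. Igfbp6 (log2 fold change -0.39, edgeR adjusted p 0.00037) and Igfbpl1 (0.27, edgeR adjusted p 0.0178) were the other tested genes of the IGF-binding list, Igfbp1 had 0 counts in all libraries and Igfals at most 5.

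**Figure D3:**
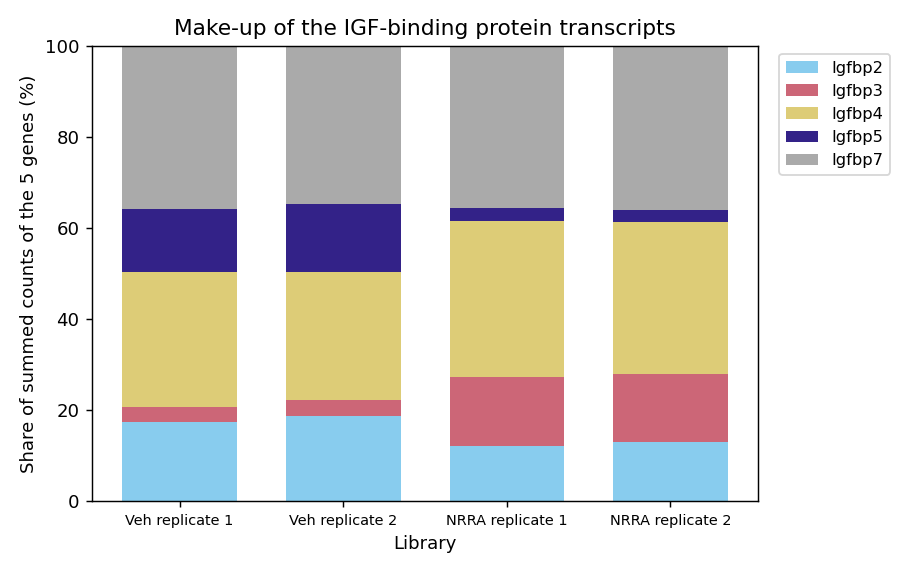
Share (%) of the summed counts of Igfbp2, Igfbp3, Igfbp4, Igfbp5 and Igfbp7 in each library, as stacked bars that add to 100%. The Igfbp3 segment widens from 3.35% and 3.58% in Veh to 15.1% and 14.8% in NRRA and the Igfbp5 segment narrows from 13.8% and 14.8% to 2.92% and 2.80%.

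The upstream sequences of the genes with the largest changes, Igfbp3 and Igfbp5, are shown because they differ in base composition. Over the 150 bases before the RefSeq start, 78.7% were G or C with 23 CpG in Igfbp3, and 55.3% with 5 CpG in Igfbp5. Capitals mark CpG, and both stretches read 5' to 3' on the minus strand, at chr11:7213924-7214073 and chr1:72874866-72875015 (GRCm38.p6, RefSeq). The last 19 bases of the Igfbp5 stretch lie inside the GENCODE gene.
Igfbp3: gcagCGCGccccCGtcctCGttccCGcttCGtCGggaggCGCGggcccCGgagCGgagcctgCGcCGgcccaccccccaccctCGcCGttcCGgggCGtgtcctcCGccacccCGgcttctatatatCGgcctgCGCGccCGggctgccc
Igfbp5: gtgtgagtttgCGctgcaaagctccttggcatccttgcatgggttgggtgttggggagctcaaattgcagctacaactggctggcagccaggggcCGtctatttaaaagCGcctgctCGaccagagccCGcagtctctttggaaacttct
Neither window holds CAAAACAA or the FoxO core GTAAACA, which occurs in 3.17% of all windows. Neither holds a direct repeat of AGGTCA spaced by 5 bases, an arrangement that RA receptors bind (in 3 of all 32851 windows). Other repeats were not searched, and no match says only that these letters are not in the windows. The letters TATAAA of a TATA box (in 12.4% of all windows) were found in the window of Igfbp4 and in no other of the 9 genes with a window, and variants of these letters were not searched. They start at -28 and are shown in capitals in the 60 bases before its start at chr11:99041184-99041243 on the plus strand.
Igfbp4: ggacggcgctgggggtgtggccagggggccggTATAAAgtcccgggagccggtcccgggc

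Per length, Igfbp7 led in both groups with 146 ± 2.80 RPKM in Veh and 151 ± 1.68 RPKM in NRRA (mean ± SD of 2 libraries). In Veh it was followed by Igfbp2, Igfbp4, Igf1r, Igfbp5, Irs2, Igfbp3, Irs1, Insr and Igf1, and 8 of the 9 neighbouring pairs were separated by more than the range of their libraries, the exception being Irs2 and Igfbp3. In NRRA the order was Igfbp7, Igfbp4, Igfbp2, Igfbp3, Igf1r, Irs1, Irs2, Igfbp5, Insr and Igf1, with all 9 pairs separated. Igfbp3 moved from the seventh to the fourth place and Igfbp5 from the fifth to the eighth. With the length of the longest transcript in place of all exonic bases, the order changed in part. In Veh, Igfbp3 then stood above Irs2. In NRRA, Igfbp2 stood above Igfbp4, and Insr stood above Irs2 and Igfbp5, which left Igfbp5 in the ninth place. All 9 neighbouring pairs in Veh and 8 in NRRA were separated, with Irs1 and Insr not separated in NRRA.

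**Figure D4:**
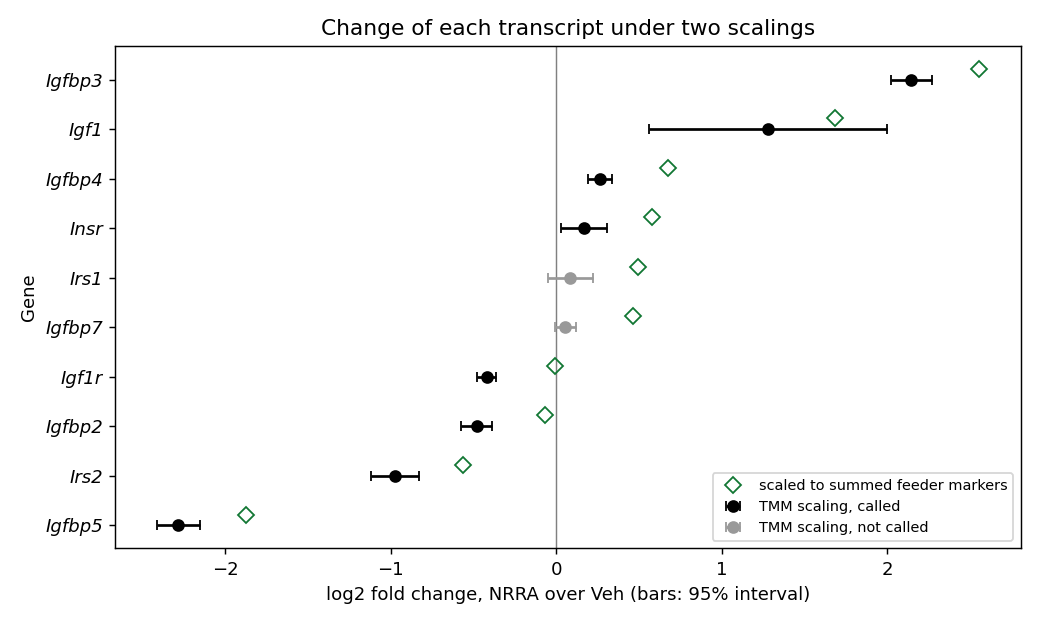
Log2 fold change (NRRA over Veh) of each gene with its 95% interval under TMM scaling (circles, black where called and grey where not) and with libraries scaled to the summed feeder markers (open diamonds). The diamonds lie about 0.41 to the right of the circles, so Igf1r and Igfbp2 come to lie near 0 while Igfbp3, Igfbp5 and Irs2 keep their side.

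Scaling to the feeder markers moved the median log2 fold change of all tested genes from 0.00029 to 0.41, and the split of all calls from 49.6% to 85.3% higher. With library size only, 60.3% of all calls were higher. Under every scaling run, Igfbp3, Igf1, Igfbp4 and Insr stayed higher, and Igfbp5 and Irs2 stayed lower, each past the threshold. How far feeder cells and germ cells each contributed to these transcripts was not tested.

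The other genes of the pathway moved both ways. Lists from textbook knowledge held 102 further genes, of which 90 were tested, 29 were higher (32.2%), 39 were lower (43.3%) and 22 were not called, with a median log2 fold change of -0.033. The shares over all genes tested were 27.9% and 28.4%. With library size only, 39 of these pathway genes were higher and 35 lower, so which direction held more of them depended on the scaling. No count of the lists below was tested against all genes. Of 17 tested adaptors other than Irs1 and Irs2, 6 were higher (35.3%) and 5 lower (29.4%), from 1.08 for Irs4 to -1.34 for Sh2b3. Sh2b3 encodes the adaptor LNK, a brake on cytokine and KIT receptors, and fell from 183 ± 2.55 to 72.3 ± 0.974 CPM (mean ± SD of 2 libraries, edgeR adjusted p 4.57e-21). Its relatives Sh2b1 and Sh2b2, which bind the insulin receptor, rose by log2 fold changes of 0.41 and 0.89 (edgeR adjusted p 5.21e-10 and 2.10e-07). Shc1, which links receptors to the RAS pathway, fell by 0.54 on the log2 scale (edgeR adjusted p 1.08e-13).

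The next list held genes that cut IGF-binding proteins or restrain the cutting enzymes. Of 9 tested, 3 were higher (33.3%) and 4 lower (44.4%), with all genes at 27.9% and 28.4% (median log2 fold change -0.16). Htra1, a secreted serine protease whose known substrates include IGF-binding proteins, rose from 7.26 ± 0.0968 to 36.2 ± 3.22 CPM (mean ± SD of 2 libraries), log2 fold change 2.32 (SE 0.090, edgeR adjusted p 1.12e-17), and Htra3 and Adamts1 rose by 0.91 and 0.68. Stc1, an inhibitor of PAPPA, fell by 1.76 on the log2 scale (edgeR adjusted p 5.62e-10), Adam12 by 1.09 and Pappa itself by 0.30 (edgeR adjusted p 1.78e-09 and 0.00468).

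Below the receptors, 6 of 21 genes from PI3-kinase to FoxO were higher (28.6%) and 9 lower (42.9%), beside 27.9% and 28.4% of all genes (median log2 fold change 0.0051). Pdpk1, the kinase that activates AKT, rose by a log2 fold change of 0.67, Pik3cb by 0.41 and Tsc2 by 0.39. Pik3cd, a catalytic PI3-kinase subunit best known from white blood cells, had 206 and 201 CPM in Veh and 72.1 and 70.1 CPM in NRRA, log2 fold change -1.52 (edgeR adjusted p 2.61e-22). Foxo6 and Tsc1 had log2 fold changes of -1.27 and -0.44. Of 19 genes that damp the signal, 6 were higher (31.6%) and 9 lower (47.4%), against the same shares of all genes (median log2 fold change -0.073). The AKT phosphatase genes Phlpp1 and Phlpp2 rose by 1.45 and 0.80, and Inpp5d, a lipid phosphatase gene, by 0.69. Socs3, an inhibitor of cytokine and insulin receptor signalling, had 163 and 160.1 CPM in Veh and 39.7 and 39.0 CPM in NRRA, log2 fold change -2.04 (edgeR adjusted p 8.72e-24), and Enpp1 and Inpp4b had -1.58 and -1.49.

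The last list held FoxO targets. Of 19 tested that are not among the 10 genes, 7 were higher (36.8%) and 8 lower (42.1%), with all genes at 27.9% and 28.4% (median log2 fold change -0.0041). Pdk4, which restrains pyruvate oxidation, Klf15 and Sesn3 rose by log2 fold changes of 1.78, 1.40 and 0.76. Trim63, a muscle ubiquitin ligase gene, Trib1 and Cited2 had -2.40, -1.49 and -1.46, and each of these 6 was past the threshold with an edgeR adjusted p of at most 0.000155.

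**Figure D5:**
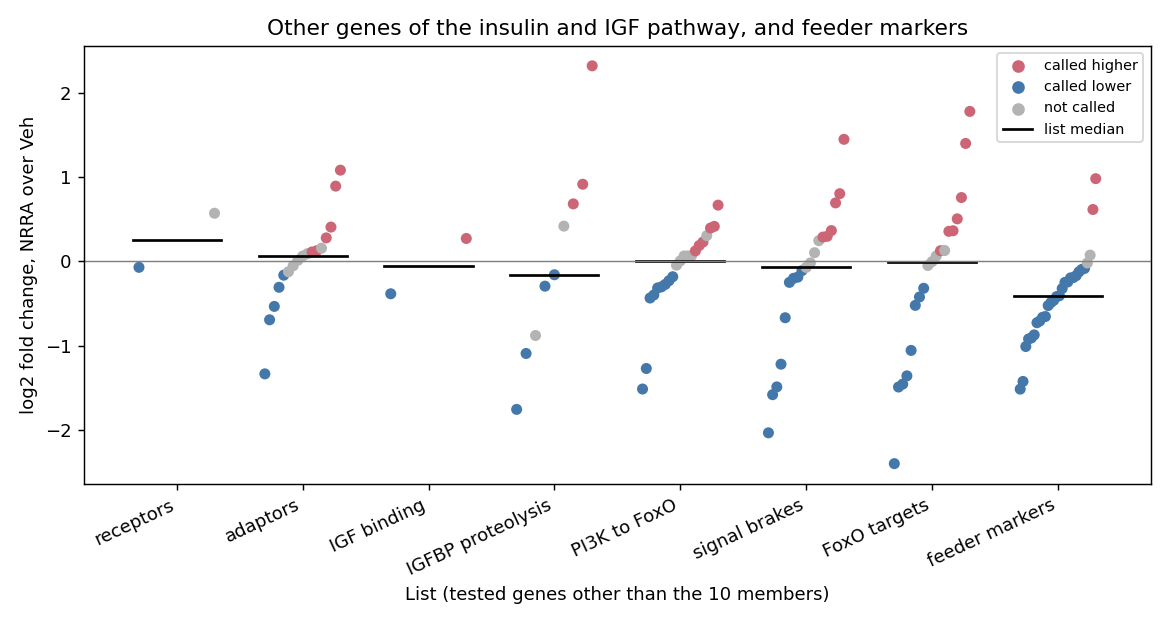
Log2 fold change (NRRA over Veh) of each tested gene other than the 10 described, for 7 pathway lists and the feeder markers (points, ordered by value within a list; the 2 other tested ligands are not drawn), with horizontal bars at the list medians and colour for genes called higher, lower or not called. The pathway lists drawn spread on both sides of 0, with medians between -0.16 and 0.25, while the feeder markers have a median of -0.41 and 24 of 28 called lower.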

How the data were processed

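Poly(A) RNA of 4 libraries was sequenced by the authors, who deposited 1 table of raw counts per gene. The submitters' processing notes name STAR 2.6.1c, featureCounts 1.6.4 and build mm10. The annotation release, strand setting and handling of multi-mapped reads are not given in the sources used here. The labels and the study's methods name different library kits. Samples were grouped by title, and columns were matched by description. Genes were filtered with filterByExpr, scaled with TMM and tested with edgeR 4.0.16 in R 4.3.3 (robust quasi-likelihood F test, adjusted over all genes tested, threshold 0.05). The fit was also run on simulated counts in which few genes changed. In these data 27.9% of tested genes were called higher and 28.4% lower, a setting that the simulation does not cover. SE was derived from F. CPM uses TMM-adjusted library sizes. DESeq2 1.42.0, the tool of the study, and limma 3.58.1 (voom) were alternatives, beside other scalings and filters, a replicate block and each library left out. Coordinates and exon lengths came from GENCODE M21, in which 99.67% of gene identifiers and all 10 genes were found, and upstream sequences from RefSeq (GRCm38.p6). Near-identical stretches were found by BLAST against the other GENCODE transcripts. The 10 genes were named in full. Genes of the ligand, receptor, adaptor and binding protein lists could be named, and from the other pathway lists the 3 largest and 3 smallest called changes. The genes and lists were chosen with earlier results of these data known.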

Additional observations from a re-analysis of the deposited data

How the results depend on the processing

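No direction changed in any of the 10 genes under the alternatives run. The calls of Igfbp3, Igfbp5, Igfbp4, Irs2 and Igf1 were kept in each, and those of Igfbp2 and Igf1r in each except the scaling to the feeder markers. Insr lost its call with DESeq2 (0.17) and in 2 of the fits that left out a library, over which it ranged from 0.14 to 0.21. With library size only, Irs1 (0.17) and Igfbp7 (0.14) gained a call, as did Igfbp7 with upper quartile factors (0.075). The feeder marker scaling, extended to the receptors and substrates after the data were seen, took the call from Igf1r (log2 fold change -0.0076) and Igfbp2 (-0.067) and gave one to Irs1 (0.50) and Igfbp7 (0.47), with all genes shifted by 0.41. With the replicate number as a block, 4 of the 10 genes were higher and 4 lower, as without it, and 5772 and 5836 of all tested genes (5654 and 5752 without). The other pathway genes, 29 higher and 39 lower, were 39 and 35 with library size only. The block and the pairing use the numbers of the sample titles, whereas the count columns number the Veh libraries differently. Deviations of libraries with the same title number correlated at -0.011 across genes, and the numbers were not taken to pair the samples. Igf1 rests on under 50 counts per library, and its log2 fold change ranged from 1.04 to 1.59 when a library was left out. A library that is alone in its group is assumed to vary like the others.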

Other observations

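The upstream windows of the genes were mostly rich in G and C. All windows had a median of 52.4% over 250 bases, and those of the 9 genes with a window ranged from 52.8% for Igf1 to 77.6% for Igf1r, whose window held 42 CpG. Of 11 motifs searched on both strands, the GC box GGGCGG (32.7% of all windows) occurred in Igf1r, Igfbp2, Igfbp7, Irs1 and Irs2, and CCAAT (33.9%) in Igf1 and Irs2. AGGTCA, a motif of many nuclear receptors (14% of all windows), was found at -161 in Igf1 and at -86 in Igf1r, and the related AGTTCA (11.8%) at -25 in Irs2. The AP-1 site TGACTCA (4.46%) occurred in the second window of Igfbp2, and the CRE TGACGTCA (1.55%) in none.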
